A study of Mus musculus with 8 samples.

Results

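The mitochondrially encoded complex I mRNAs are the 7 messages of the mouse mitochondrial genome that carry subunits of NADH dehydrogenase: mt-Nd1, mt-Nd2, mt-Nd3, mt-Nd4, mt-Nd4l, mt-Nd5 and mt-Nd6. They were selected by gene name among the reads whose poly(A) tail estimate carried the quality tag PASS, counting each read once per annotated transcript. All 7 genes had at least 1 such read, against 13518 genes in the whole table, and together they held 13365 of 2005242 reads on mRNA transcripts. Nanopore direct RNA sequencing, in which one native poly(A) RNA molecule gives one read, was applied to P19 cells, a mouse embryonal carcinoma line. Cells received 10 µM MHY1485 (MHY), described as an activator of mTOR, or the solvent DMSO, for 24 h or 48 h, with 2 libraries in each of the 4 groups. The table names the libraries DMSO_21, DMSO_23, MHY_21 and MHY_23 (24 h) and DMSO_24, DMSO_25, MHY_24 and MHY_25 (48 h). The cells are one line in culture, and the methods of the study describe the 2 libraries of a group as biological replicates.

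Complex I is the first enzyme of the respiratory chain, which passes electrons from NADH to ubiquinone and pumps protons across the inner mitochondrial membrane. Its core membrane subunits are encoded in mitochondrial DNA and the remaining subunits in the nucleus. Mitochondrial DNA is copied into long RNAs from both strands, and these are cut mostly at the tRNAs that lie between the messages. The freed 3′ ends then receive short poly(A) tails from a mitochondrial poly(A) polymerase, and for some messages the tail completes the stop codon.

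The depth was 185694 to 329615 PASS reads on mRNA transcripts per library, of which the complex I members took 0.556% to 0.828% and all mitochondrial mRNAs together 2.87% to 3.94%. All 8 genes listed as markers of P19 embryonal carcinoma cells were read, summing to 3341 to 3824 RPM (PASS reads scaled to the total of each library) in each library. The neuronal list, with 5 of 6 genes read and Dcx at 0, summed to 44.9 to 119 RPM. The endoderm and other germ layer list, with 3 of 6 genes read and Sox17, Afp and Myl7 at 0, summed to 16.2 to 225 RPM. At 48 h, 1 of 6 P19 markers tested was called lower in MHY, against 0.92% of all transcripts called for read level, namely Tdgf1, a co-receptor of Nodal signalling (log2 fold change −0.96, SE 0.21, limma adjusted p = 0.00399). Of these 6 markers 3 were below 0, and their median log2 fold change was −0.01. The 1 endoderm or germ layer marker tested, T, the mesoderm factor Brachyury, stood at −1.17 for MHY at 48 h and at 1.61 for time in DMSO, neither of them called. In the 48 h libraries the median tail of all reads was 90.5 nt in MHY_24 and 94.3 to 96.9 nt in the other 3. The part of these differences in the results of the members was not tested.

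The 3′ ends of the annotated messages are shown because the alignment ends below are placed relative to them, and because neighbouring genes overlap at several of them. Each line gives the last 30 bases, 5′ to 3′ on the strand of the gene, from GENCODE vM21 transcripts (mm10). Capitals mark the bases that also belong to the next annotated gene.
mt-Nd1: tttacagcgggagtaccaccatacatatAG
mt-Nd2: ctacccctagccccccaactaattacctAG
mt-Nd3: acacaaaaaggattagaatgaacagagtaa
mt-Nd4l: gtccaaaatctcaacctactacaATGCTAA
mt-Nd4: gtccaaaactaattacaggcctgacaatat
mt-Nd5: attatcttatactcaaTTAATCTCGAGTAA
mt-Nd6: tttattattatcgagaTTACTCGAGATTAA

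On the plus strand, mt-Nd1 lies at chrM:2751-3707 and shares its last 2 bases with mt-Ti, and mt-Nd2 lies at chrM:3914-4951 and shares its last 2 bases with mt-Tw. The mt-Nd3 message (chrM:9459-9806) overlaps no annotated gene at its 3′ end. The mt-Nd4l message (chrM:9877-10173) ends inside mt-Nd4 (chrM:10167-11544), with 7 bases in common, and the annotated mt-Nd4 ends on a single T after its last full codon. The mt-Nd5 message (chrM:11742-13565) and mt-Nd6 (chrM:13552-14070), which is on the minus strand, overlap by 14 bases on opposite strands.

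The number of usable tails differed between the members. For mt-Nd1, 80.7% of 7032 alignments carried PASS. The share was 77.9% of 3312 for mt-Nd2, 73.2% of 1922 for mt-Nd3 and 79.9% of 4035 for mt-Nd4. By contrast PASS was found on 0.625% of 2558 mt-Nd4l alignments, 12.7% of 2055 mt-Nd5 alignments and 10.2% of 1937 mt-Nd6 alignments. Most of those alignments were tagged SUFFCLIP, which marks reads with unaligned sequence between the alignment and the tail, at 79.9%, 69.9% and 72.0%, respectively. These 3 members thus entered the PASS set with 16, 262 and 198 reads.

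**Figure D1:**
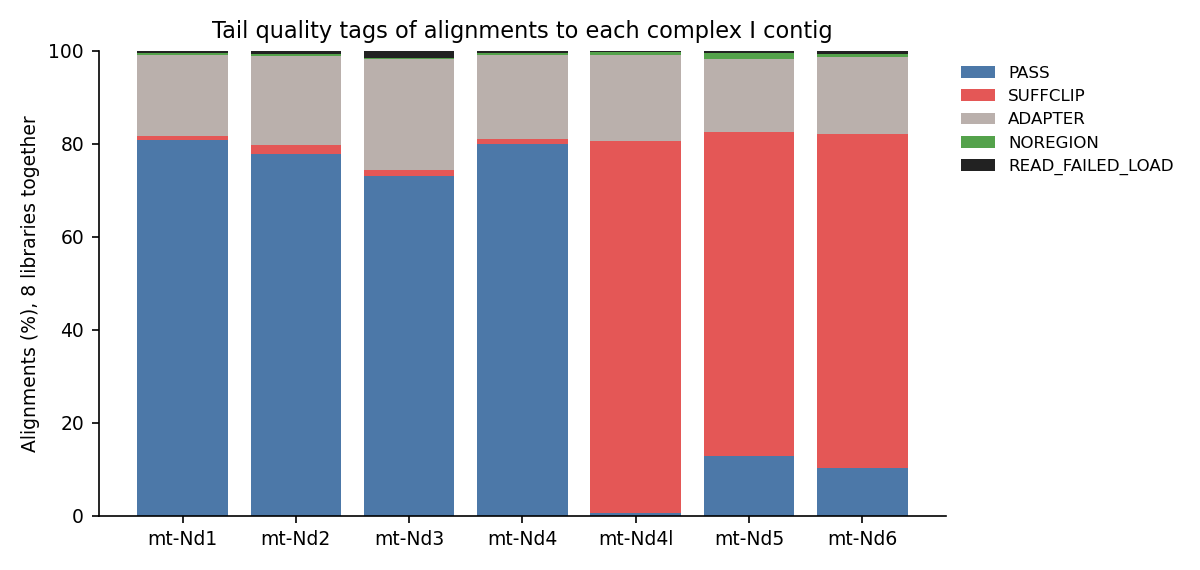
Share of alignments (%, y axis) with each tail quality tag for the 7 complex I messages (x axis), all 8 libraries together. PASS made up 73.2% to 80.7% of mt-Nd1, mt-Nd2, mt-Nd3 and mt-Nd4, while SUFFCLIP made up 69.9% to 79.9% of mt-Nd4l, mt-Nd5 and mt-Nd6.

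The mt-Nd4l and mt-Nd4 messages, which encode neighbouring membrane subunits, were mostly read as 1 molecule. Of 2558 reads on mt-Nd4l, 2468 were also aligned to mt-Nd4, which is 96.5% of the mt-Nd4l reads and 61.2% of the mt-Nd4 reads. Among PASS reads of mt-Nd4 that reached the first 25 nt of its annotation, 83.1% to 91.0% in each library also covered mt-Nd4l. The tails of mt-Nd4 reads with and without mt-Nd4l had library medians of 49.6 to 53.0 nt and 49.0 to 53.3 nt, and the difference lay between −1.75 and 1.47 nt. Neither kind was longer in every library.

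The joint between them is shown because those reads run through it: the first 30 bases of mt-Nd4 (chrM:10167-10196), with the 7 bases shared with mt-Nd4l in capitals.
mt-Nd4 start: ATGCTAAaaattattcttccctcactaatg

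The mt-Nd5 and mt-Nd6 contigs also shared their reads, although the genes are on opposite strands. Of 2055 reads on mt-Nd5, 1709 were also on mt-Nd6, which is 83.2% of the mt-Nd5 reads and 88.2% of the mt-Nd6 reads. Of the shared mt-Nd5 alignments, 98.4% ended in the last 25 nt of mt-Nd5, against 11.1% of the PASS alignments of mt-Nd5. The PASS reads of mt-Nd5 were therefore mostly those that stopped before the annotated end. The table holds no strand, so reads on the mt-Nd6 contig could not be assigned to the mt-Nd6 mRNA, and its values below describe that contig only.

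Each read on several member contigs had 1 tail estimate, in 4195 of 4195 reads. The remaining shared reads were few. Gm20594 held 4.81% of mt-Nd1 reads, Gm10222 2.13% of mt-Nd4 reads, Gm28439 2.66% of mt-Nd4l reads and the repeat L1Md_F2 1.41% of mt-Nd5 reads. The mt-Nd4 contig held 1.75% of mt-Nd5 reads and 1.03% of mt-Nd6 reads. Annotated pseudogenes nearly identical to members were Gm28438, with 1 difference from mt-Nd3 over 345 nt, Gm28439, with 0 differences from mt-Nd4 over 876 nt, and Gm10222, with 0 differences from mt-Nd4l over 294 nt. Every PASS read of mt-Nd3 had a mapping quality of at most 4, so its reads could not be told from reads of Gm28438 by mapping. The Gm28438 contig held 97 alignments, against 1922 on mt-Nd3.

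At the 3′ side, the alignments of mt-Nd3 ended at 1 place and those of mt-Nd1 at 4. Base 348, the last of mt-Nd3, was the end of 95.6% of its reads. For mt-Nd2, 60.5% of reads ended at base 1037, the first base it shares with mt-Tw, and 3.68% at base 1038. For mt-Nd4, 51.3% ended at its last base, 1378, and 30.7% at base 1377. In mt-Nd1, ends at bases 956, 945, 954 and 950 took 20.7%, 20.3%, 17.9% and 14.5% of the reads, or 73.3% together. Each of these 4 bases is an A in the sequence above, as is base 1037 of mt-Nd2. An aligned A cannot be told from an A of the tail, so whether these alignment ends are separate RNA ends was not tested. The tails behind these 4 ends had medians of 48.4, 48.5, 48.6 and 48.9 nt, so the place of the alignment end went with little difference in tail length.

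**Figure D2:**
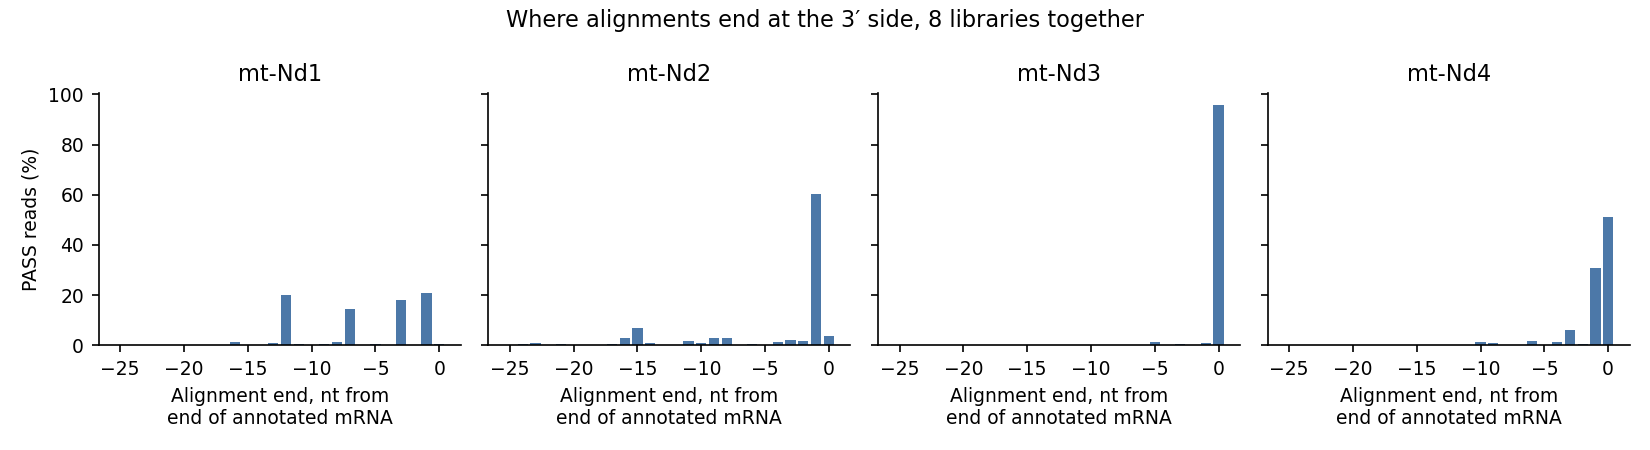
Share of PASS reads (%, y axis) whose alignment ends at each distance from the end of the annotated mRNA (nt, x axis, 0 is the last base), for mt-Nd1, mt-Nd2, mt-Nd3 and mt-Nd4 over 8 libraries. Base 348 took 95.6% of mt-Nd3 reads, while the mt-Nd1 reads were split over 4 main ends.

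Most reads of mt-Nd1, mt-Nd2, mt-Nd3 and mt-Nd4 extended to the 5′ side of their message. Alignments reached the first 25 nt in 92.0% of mt-Nd3 reads, 81.4% of mt-Nd1 reads, 71.1% of mt-Nd2 reads and 70.4% of mt-Nd4 reads. In mt-Nd1, 39.5% of reads began at base 12 and 9.74% at base 1. Reads beginning at base 1 had the lower median tail in 8 of 8 libraries, with library medians of 38.7 to 48.7 nt against 48.0 to 51.5 nt for base 12. This split was chosen after its values were seen and was not tested.

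The members carried short tails with a narrow spread. Median tails in the 8 libraries ran from 47.1 to 49.6 nt for mt-Nd1, 47.4 to 48.8 nt for mt-Nd2, 50.3 to 51.7 nt for mt-Nd3 and 49.8 to 53.1 nt for mt-Nd4. The interquartile range of single reads within a library was 12.4 to 14.4 nt, 13.7 to 18.6 nt, 13.25 to 17.1 nt and 12.3 to 14.2 nt, respectively. The contigs with few PASS reads were lower and more scattered, at 37.8 to 47.0 nt for mt-Nd5 and 39.1 to 45.9 nt for mt-Nd6. The 16 PASS reads of mt-Nd4l had a median of 36.0 nt. With SUFFCLIP reads added, a choice made after seeing the tags, the library medians were 41.5 to 44.3 nt for mt-Nd5, 41.4 to 43.9 nt for mt-Nd6 and 49.5 to 52.7 nt for mt-Nd4l. The mt-Nd4l range then overlapped that of mt-Nd4 (49.85 to 53.1 nt), with which it shares most reads.

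**Figure D3:**
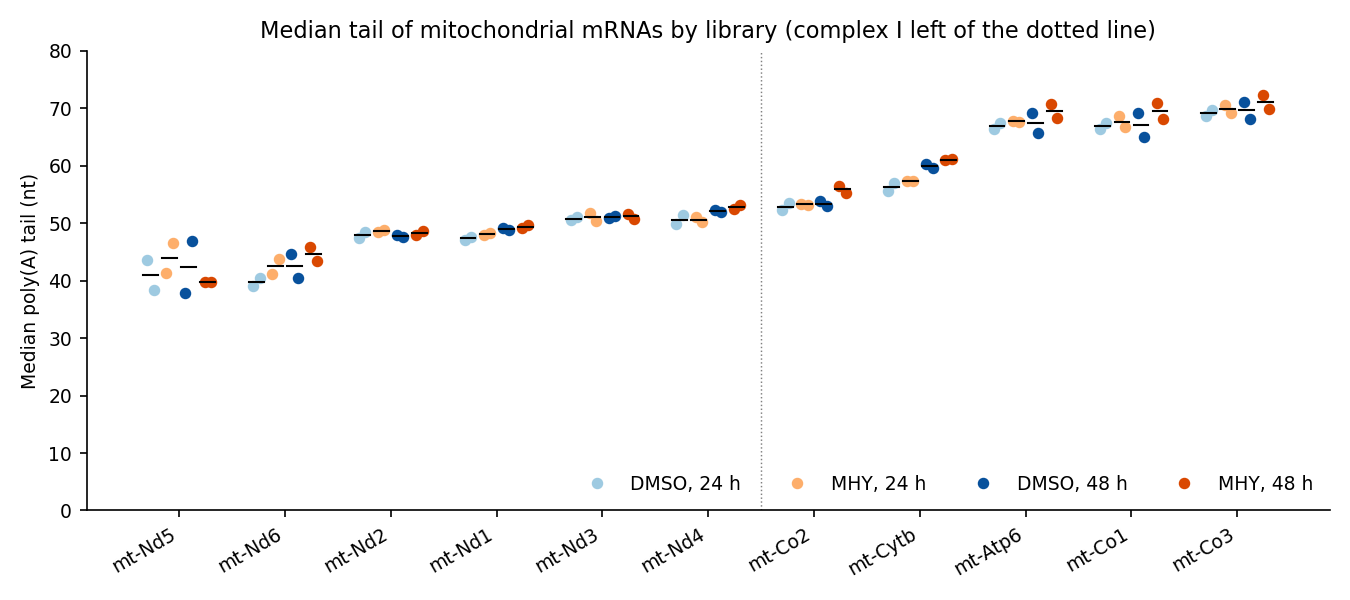
Median poly(A) tail (nt, y axis) of each mitochondrial mRNA with at least 10 PASS reads in every library (x axis), with 1 point per library coloured by group and a bar at the mean of the 2 libraries. The 6 complex I contigs lie left of the dotted line, and each lay below each of the 5 other mRNAs in 8 of 8 libraries.

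In the order of median tails, the steps from mt-Nd6 to mt-Nd2 and from mt-Nd1 to mt-Nd3 exceeded the spread between libraries. The order was taken from the mean of these same 8 library medians, so the values tested also set the pairs and the direction of each step. The mt-Nd6 contig held 11 to 39 PASS reads per library. The mt-Nd2 median was 5.80 ± 2.30 nt (SD, n = 8) above that of mt-Nd6 and higher in 8 of 8 libraries (two-sided exact sign-flip permutation test, p = 0.0078, adjusted p = 0.0107 over 11 pairs). The mt-Nd3 median was 2.52 ± 0.92 nt (SD, n = 8) above that of mt-Nd1, again in 8 of 8 libraries (exact sign-flip, p = 0.0078, adjusted p = 0.0107). That p is the smallest that 8 libraries can give. The other neighbours were not separated: mt-Nd6 against mt-Nd5 (0.58 ± 4.92 nt, exact adjusted p = 0.75), mt-Nd1 against mt-Nd2 (0.31 ± 0.89 nt, exact adjusted p = 0.361) and mt-Nd4 against mt-Nd3 (0.56 ± 1.06 nt, exact adjusted p = 0.229).

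The complex I messages of the nucleus had longer tails. The pooled reads of 37 nuclear-encoded subunit genes had library medians of 87.4 to 98.0 nt. All 6 members measured were below them in 8 of 8 libraries, with differences from −43.6 ± 4.19 nt (SD, n = 8) for mt-Nd4 to −53.4 ± 3.98 nt for mt-Nd5 (exact sign-flip permutation test, adjusted p = 0.0107 for each). The spread differed as well, with an interquartile range of 65.2 to 69.7 nt in the nuclear reads. These pool 37 genes, so that range includes differences between genes, unlike the ranges of single members above. With the reads of the members pooled too, it was 13.1 to 15.7 nt. Of the nuclear reads, 48.1% to 56.3% had tails over 90 nt.

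Among the other mitochondrial mRNAs, medians over all reads were 53.8 nt for mt-Co2, 58.7 nt for mt-Cytb, 67.6 nt for mt-Co1, 67.8 nt for mt-Atp6 and 69.8 nt for mt-Co3, which encode subunits of complexes IV, III and V. The 9 reads of mt-Atp8 had a median of 24.0 nt. Every complex I member with at least 10 reads per library was below each of the first 5 in 8 of 8 libraries. The closest pair was mt-Nd4 and mt-Co2, which differed by 1.09 to 3.94 nt. A narrow spread was not particular to the members. The interquartile range within a library was 13.1 to 16.3 nt for mt-Co2 and 15.8 to 21.5 nt for mt-Cytb. It was 15.9 to 21.8 nt for mt-Co1, 15.0 to 23.4 nt for mt-Atp6 and 15.2 to 21.9 nt for mt-Co3.

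MHY was compared with DMSO for median tails in a limma fit over 1887 transcripts, each with 10 or more reads per library. No transcript was called in any of the contrasts at an adjusted p under 0.05, a background of 0% at 24 h, at 48 h, for the difference of these effects and for 48 h against 24 h in DMSO. At an unadjusted p under 0.05 there were 81, 94, 84 and 95 transcripts, respectively, with no member among them. In mt-Nd1, the medians at 48 h were 49.1 and 48.8 nt in DMSO and 49.1 and 49.6 nt in MHY. The fitted difference was 0.42 nt (SE 3.41), and for mt-Nd2, mt-Nd3 and mt-Nd4 it was 0.46 (SE 4.23), 0.17 (SE 5.20) and 0.69 nt (SE 3.96). At 24 h the differences of these 4 members were between −0.02 and 0.80 nt. These standard errors borrow the spread of transcripts with similar read numbers, and time in DMSO cannot be told apart from sequencing run.

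Although the medians stayed close, the share of mt-Nd2 reads in the main size class was lower after 48 h of MHY. The mt-Nd2 message encodes a proton-pumping membrane subunit. Tails of 30 to 90 nt made up 93.8% (95% Wilson interval 90.8 to 95.9) and 93.1% (90.3 to 95.2) of its reads in DMSO_24 and DMSO_25. In MHY_24 and MHY_25 they made up 85.4% (81.4 to 88.6) and 87.3% (82.7 to 90.7). The treated libraries were both below the controls, and these intervals cover counting error only. The share fell by 1.17 on the log2 odds scale (SE 0.22, limma adjusted p = 0.000334), the call being 1 of 6 among 1887 transcripts (0.318%).

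The loss was found on both sides of the class. Tails under 30 nt made up 5.32% and 5.64% of mt-Nd2 reads in DMSO and 11.7% and 8.99% in MHY at 48 h. Those over 90 nt made up 0.840% and 1.23% (3 and 5 reads) in DMSO and 2.93% and 3.75% (11 and 10 reads) in MHY. Both classes were higher in both treated libraries. For tails under 30 nt, the median effect over all 1887 transcripts at 48 h was also positive, at 0.40 on the log2 odds scale, with 0 called. It was 0.51 over transcripts of nuclear-encoded complex I subunits and 0.43 over the 6 members tested. In the pooled nuclear reads this class overlapped between groups, at 3.94% and 2.67% in DMSO and 5.20% and 3.85% in MHY. The members differed among themselves in this class, from −0.19 for the mt-Nd6 contig to 0.97 for mt-Nd2 (SE 0.57) and 1.95 for mt-Nd3 (SE 0.82), and none was called. Without MHY_24, the library with the lowest median tail over all reads, the 30 to 90 nt effect of mt-Nd2 was −1.06 (limma adjusted p = 0.0312). The table names the sequencing run of each read, 3 runs at 24 h and 2 at 48 h, and every run of a time point read the same 4 libraries, so runs are not independent replicates. Within the 2 sequencing runs of 48 h, the 30 to 90 nt share of mt-Nd2 differed between MHY and DMSO by −8.98 and −5.83 percentage points. Within the 3 runs of 24 h it differed by 3.30, −4.50 and −0.24 percentage points, so single runs also moved by several points in either direction. At 24 h it was 93.3% and 92.1% in DMSO and 92.0% and 93.1% in MHY, and these groups overlapped. The effects at 48 h and 24 h differed by −1.14 on the log2 odds scale (SE 0.30), which did not pass (limma adjusted p = 0.243; 0% of transcripts called, 84 at an unadjusted p under 0.05). The call at 48 h was lost when the class was set to 40 to 80 nt, where the effect was −0.35 (limma adjusted p = 0.99). It was also lost when the libraries of 48 h were fitted alone, with the effect still at −1.17 (SE 0.20, limma adjusted p = 0.237).

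**Figure D4:**
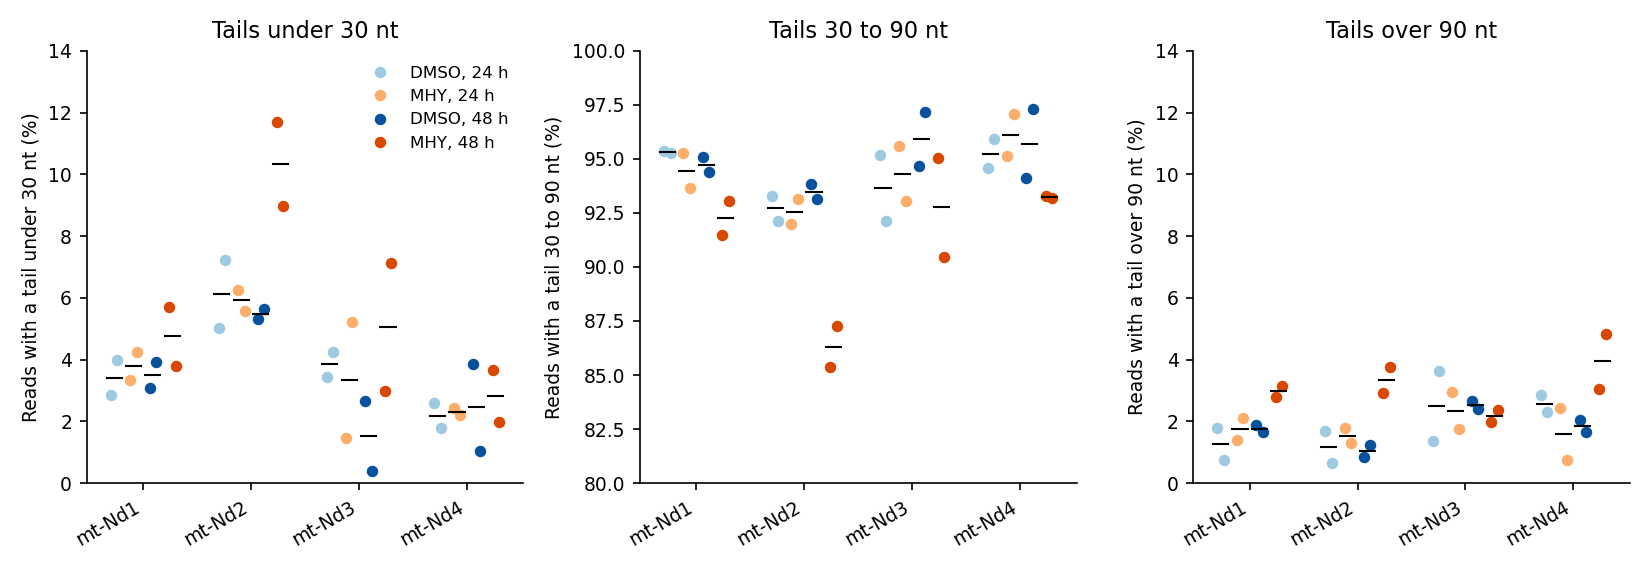
Share of reads (%, y axis) with tails under 30 nt, of 30 to 90 nt (axis from 80%) and over 90 nt for mt-Nd1, mt-Nd2, mt-Nd3 and mt-Nd4 (x axis), with 1 point per library coloured by group and a bar at the mean of 2. At 48 h the 30 to 90 nt share of mt-Nd2 was 85.4% and 87.3% in MHY against 93.8% and 93.1% in DMSO.

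Of the other 5 members tested, mt-Nd1, mt-Nd3, mt-Nd4 and mt-Nd5 had negative effects for this share at 48 h and mt-Nd6 a positive one, and none passed; mt-Nd4l had too few PASS reads to be tested. Single libraries and settings moved these effects. With the library number as a block, mt-Nd1 and mt-Nd4 were called (limma adjusted p = 0.00715 and 0.00562), although the numbers did not pair the libraries. Without DMSO_24 both mt-Nd3 (log2 odds −1.31, limma adjusted p = 0.0383) and mt-Nd4 (−1.35, adjusted p = 0.000146) were called, and without DMSO_25 they stood at −0.40 and −0.21. Without MHY_24 and MHY_25 in turn, mt-Nd3 stood at −1.35 and −0.36 and was not called. In mt-Nd1, whose product helps form the quinone-binding site, the shares were 95.1% and 94.4% in DMSO and 91.5% and 93.1% in MHY (limma adjusted p = 0.328). For mt-Nd4, which encodes another proton-pumping subunit, they were 94.1% and 97.3% against 93.3% and 93.2% (adjusted p = 0.282), and for mt-Nd3, which encodes a small core subunit, 94.7% and 97.2% against 95.05% and 90.5% (adjusted p = 0.491), where the groups overlapped. The mt-Nd5 shares rest on 27 to 41 reads per library at 48 h and were 75.7% and 74.1% against 58.5% and 64.5%. Within the 2 runs of 48 h the differences were −3.73 and −1.56 percentage points for mt-Nd1, −2.77 and −3.52 for mt-Nd3 and −1.50 and −3.10 for mt-Nd4. Within the 3 runs of 24 h they were −1.80, −0.81 and 0.71 for mt-Nd1, 3.95, −7.63 and 2.34 for mt-Nd3 and 1.35, 1.11 and −0.37 for mt-Nd4. In size, 2 of the 3 mt-Nd3 values at 24 h were thus larger than either of its 48 h values. Tails over 90 nt were more frequent in both treated libraries for mt-Nd1 (1.87% and 1.67% against 2.79% and 3.15%) and mt-Nd4 (2.04% and 1.67% against 3.06% and 4.83%), but not for mt-Nd3 (2.65% and 2.41% against 1.98% and 2.38%), and this class was not tested. The median effect of the 6 members tested was −0.82 on the log2 odds scale, against 0.01 over all 1887 transcripts.

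The 30 to 90 nt share was also lower at 48 h in the other 5 mitochondrial mRNAs tested, with both treated libraries below both controls in each. Of these, 4 were called: mt-Co1 (log2 odds −0.87, SE 0.15, limma adjusted p = 0.00021), mt-Co2 (−0.94, SE 0.17, adjusted p = 0.00021), mt-Cytb (−1.07, SE 0.19, adjusted p = 0.00021) and mt-Atp6 (adjusted p = 0.00289). The mt-Co3 mRNA did not pass (−0.66, SE 0.18, limma adjusted p = 0.114). The sixth called transcript was the predicted gene Gm29216. In these mRNAs pooled, tails over 90 nt were 8.81% and 5.92% of reads in DMSO and 11.2% and 14.3% in MHY, and tails under 30 nt 1.64% and 1.27% against 1.91% and 1.58%. None of 36 transcripts of nuclear-encoded complex I subunits was called in this class. It held 41.1% to 46.7% of the pooled nuclear reads per library, against 84.1% to 93.1% in the pooled other mitochondrial mRNAs. Its share is therefore not a like measure in the 2 sets. The nuclear reads were also spread thinly, with 17670 over 104 transcripts, against 4699 for mt-Cytb and 18537 for mt-Co1. At 24 h, 0% of transcripts were called (90 at an unadjusted p under 0.05).

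Tails under 30 nt as a class of their own gave no call in any member. The background was 0% of 1887 transcripts at 24 h, at 48 h and for their difference, with 95, 146 and 120 at an unadjusted p under 0.05 in limma. The largest fitted effect at 48 h among mt-Nd1 to mt-Nd4 was that of mt-Nd3, with 2.65% and 0.402% of reads in DMSO against 2.97% and 7.14% in MHY (6 and 1 reads against 6 and 12 reads). It had a limma adjusted p of 0.555.

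The mt-Nd1 message had the highest read level among the members. Levels are given in RPM, and since one molecule gives one read they need no division by length. Across libraries mt-Nd1 stood at 2373 to 3365, mt-Nd4 at 1367 to 1979, mt-Nd2 at 1066 to 1602 and mt-Nd3 at 577 to 1014. The mt-Nd5 and mt-Nd6 contigs stood at 81.9 to 180 and 55.9 to 144, and mt-Nd4l at 0 to 15.2. The last 3 are PASS reads only and leave out most alignments of those contigs. RPM values are shares of the reads of each library, so they do not measure the amount of RNA per cell.

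**Figure D5:**
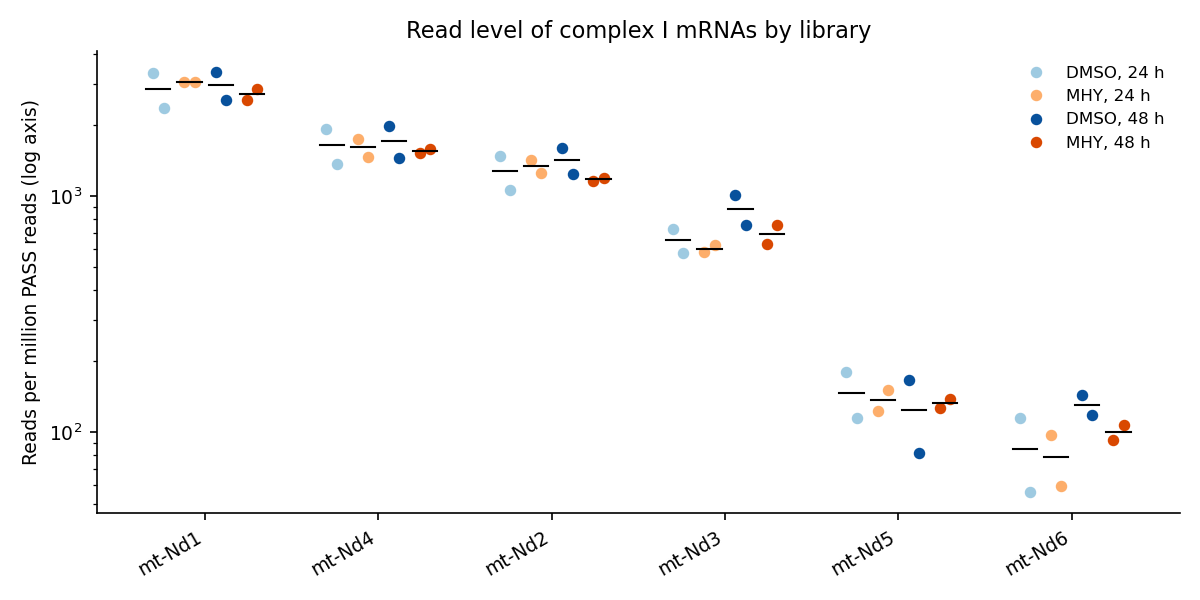
RPM of PASS reads (y axis, log scale) of 6 complex I contigs (x axis), with 1 point per library coloured by group and a bar at the mean of 2. The mt-Nd1 message lay between 2373 and 3365 and was the highest in each library.

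No member was called for its read level. In a limma voom fit over 4131 transcripts, 2 were called at 24 h (0.0484%), 38 at 48 h (0.92%), 9 for the difference of the effects (0.218%) and 0 for 48 h against 24 h in DMSO (0%, with 190 at an unadjusted p under 0.05). At 48 h mt-Nd3 stood at 1014 and 755 in DMSO and 626 and 754 in MHY (log2 fold change −0.43, SE 0.16, adjusted p = 0.215). The mt-Nd2 level was 1602 and 1238 in DMSO and 1165 and 1199 in MHY (−0.33, SE 0.14, adjusted p = 0.317). In both, the treated libraries were below the controls, for mt-Nd3 by a narrow margin. The mt-Nd1 and mt-Nd4 groups overlapped, at −0.20 (SE 0.12) and −0.20 (SE 0.14). Lower levels at 48 h were not particular to the members. All 5 other mitochondrial mRNAs tested were below 0 as well, 0 of them called and 4 at an unadjusted p under 0.05 in limma. Their median log2 fold change was −0.27, against −0.26 over the 6 members tested. Without MHY_25 the log2 fold change of mt-Nd3 at 48 h was −0.59. Over the alternatives run, the 48 h values lay between −0.64 and −0.22 in mt-Nd3 and between −0.51 and −0.17 in mt-Nd2. They lay between −0.39 and −0.025 in mt-Nd1 and between −0.42 and −0.008 in mt-Nd4. At 24 h the fold changes of these 4 members lay between −0.09 and 0.15.

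The genes that work with these messages were not called either. At 48 h 0 of 41 transcripts of nuclear-encoded complex I subunits passed (2 at an unadjusted p under 0.05 in limma; median log2 fold change −0.01). The same held for 0 of 7 transcripts of assembly factors (0 unadjusted; median −0.13) and 0 of 11 transcripts of factors for mitochondrial transcription, RNA processing and tailing (0 unadjusted; median 0.19), against a median of −0.01 over all transcripts. The profile of the summed members over the 8 libraries was nearest to mt-Cytb (Euclidean distance of centred log2 RPM 0.17), followed by mt-Atp6 (0.22), mt-Co2 (0.30), Ppia (0.32) and Pfn1 (0.34), among 232 transcripts with a median distance of 0.60. By this measure mt-Co3 (0.53) came at rank 74 and mt-Co1 (0.67) at rank 173.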

How the data were processed

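One deposited per-read table was used. The authors base-called with Guppy, assigned barcodes with Deeplexicon, aligned to GENCODE vM17 transcripts (mm10) with minimap2 (2.20) and estimated tails with Nanopolish. The deposited tail length (nt), position, mapping quality score and barcode confidence fraction were used as given. Of 2439710 lines 83.1% carried PASS, and 389 repeated read and transcript lines were dropped. Tails were summarised as medians and as class shares (log2 odds with 0.5 reads added) and tested with limma 3.58.1 in R 4.3.3, using 8 libraries in 4 groups and a prior variance that depends on read number, for transcripts holding 10 or more reads per library. Reads were counted per transcript (at least 10 in 2 libraries), scaled by median-of-ratios size factors and fitted with voom. Benjamini-Hochberg adjustment ran over all transcripts tested. The table calls Ndufb1 Ndufb1-ps. All 7 members are named, as are called members of other lists (up to 3 per contrast), each other mitochondrial mRNA and the 5 nearest profiles. The members and lists were chosen with earlier results of these data known. The fits were tested on simulated data. Library pairs of a group differed by more than counting noise (chi-square per degree of freedom 1.23 to 1.60). Contigs were compared with pseudogenes with edlib.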

Additional observations from a re-analysis of the deposited data

How the results depend on the processing

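For median tails, tails under 30 nt and read levels at 24 h, no member was called under any of the alternatives run. The mt-Nd2 share of 30 to 90 nt at 48 h was lower in all 16 alternatives and past the threshold in 14 (limma adjusted p 4.48e-06 to 0.99), the exceptions being the class of 40 to 80 nt and the libraries of 48 h alone, where 0 members were called. In that comparison 2 members were called with a minimum of 30 reads per library (mt-Nd4 besides mt-Nd2), and 2 with a barcode confidence of at least 0.75 and with weights by read number (mt-Nd1 besides mt-Nd2), and 1 to 3 when single libraries were left out (3 without DMSO_24, namely mt-Nd2, mt-Nd3 and mt-Nd4). For the difference of the effects 0 to 1 member was called with single libraries left out (1 without DMSO_24). For read levels, fitting without a filter on low counts called 3 members at 48 h and 2 for the difference, and leaving out single libraries gave 0 to 1 at 48 h (1 without MHY_25). The cause was not tested.

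The library numbers did not pair the libraries (correlation of deviations 0.02 and 0.055 for tails and −0.005 and 0.112 for counts at 24 h and 48 h). With the number as a block, 3 members (mt-Nd1, mt-Nd2 and mt-Nd4) were called for the 30 to 90 nt share at 48 h and 2 for the difference of the effects, and the mt-Nd4 read level at 24 h turned to −0.022 (log2). Over all transcripts the block gave 1, 18 and 3 calls for median tails (24 h, 48 h and time in DMSO), 4 and 3 for tails under 30 nt (48 h and difference), 1, 13 and 6 for 30 to 90 nt (24 h, 48 h and difference) and 1 for read levels at 24 h.

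Other calls over all transcripts moved as follows. For median tails there were 2 at 24 h with the libraries of 24 h alone, and at 48 h 11 with weights, 1 with mean tails and 0 to 6 with single libraries left out (6 without MHY_25). For tails under 30 nt at 48 h there were 2 with a mapping quality of at least 10, 1 with barcode confidence, 7 with weights and 0 to 2 with libraries left out (0 to 2 for the difference). For 30 to 90 nt there was 1 at 24 h with the libraries of 24 h alone and 1 with 40 to 80 nt, and 0 to 2 with libraries left out. At 48 h there were 13 with weights, 0 with the libraries of 48 h alone, 1 with 40 to 80 nt and 3 to 10 with libraries left out. For the difference there were 2 with at least 30 reads and 0 to 5 with libraries left out. Read levels without the filter on low counts gave 61, 208, 93 and 48 calls (24 h, 48 h, difference and time in DMSO). A mapping quality of at least 10 gave 1 at 24 h, the libraries of 48 h alone 24 at 48 h, and reads on 1 contig 5 for the difference. Leaving out single libraries gave 0 to 2 at 24 h, 11 to 142 at 48 h, 0 to 40 for the difference and 0 to 2 for time in DMSO.

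Some small effects turned in direction, none of them called. The median tail at 24 h became −0.43 nt in mt-Nd2 with barcode confidence, −1.92 nt in mt-Nd3 with mean tails, and 0.06, 0.64 and 0.063 nt in mt-Nd4 with mapping quality, reads on 1 contig and weights. With single libraries left out it ran from −0.44 to 0.96 nt in mt-Nd3 and −0.78 to 0.74 nt in mt-Nd4. At 48 h mt-Nd3 became −0.35 nt with mean tails and ran from −0.25 to 0.59 nt with libraries left out. Read levels at 24 h (log2) ran with libraries left out from −0.14 to 0.39 in mt-Nd1, −0.16 to 0.36 in mt-Nd2, −0.29 to 0.080 in mt-Nd3 and −0.27 to 0.27 in mt-Nd4, and mt-Nd3 became 0.039 with every quality tag. In the order of tails, mt-Nd6 minus mt-Nd5 became −1.24 nt with mean tails and ran from −0.32 to 1.60 nt with libraries left out, and mt-Nd1 minus mt-Nd2 passed with mean tails (0.93 nt, exact adjusted p = 0.0477). All other steps of the order kept their direction and their side of the threshold. A mapping quality of at least 10 left no mt-Nd3 reads. The values of mt-Nd4l, mt-Nd5 and mt-Nd6 are the least precise, resting on 0 to 41 PASS reads per library, since most of their alignments carried SUFFCLIP.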
